A study of Sus scrofa with 37 samples.

Results

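The comparison is that of peripheral blood mononuclear cells (PBMC) from 7 pigs fed a diet high in digestible P (H) with those from 6 pigs fed a diet low in it (L), both sampled at 63 days postnatum (dpn). These 13 arrays were chosen by age and dietary group as the sample labels give them, out of 37 arrays in the series. All pigs were German Landrace piglets from a few litters, weaned at 28 dpn, housed in single cages and fed wheat, barley and soybean diets without added phytase from then on. The H group held 4 female and 3 male pigs, and the L group 3 and 3. Further arrays were 5 of pigs on a medium P diet (M) at 63 dpn and 19 taken at 28 dpn, before the diets began, from 7 later H, 6 later L and 6 later M pigs. Litter and sire are not in the labels and entered no fit, so diet and family cannot be told apart where litters were spread unevenly.

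Phosphorus is taken up in the gut, stored as mineral in bone and lost through the kidney. Parathyroid hormone, the active form of vitamin D and the bone hormone FGF23 set the balance between these sites. PBMC are the lymphocytes and monocytes of the blood. Monocytes can become osteoclasts, the cells that resorb bone, when the receptor RANK (TNFRSF11A) meets its ligand RANKL (TNFSF11), which osteoprotegerin (TNFRSF11B) binds as a decoy. Lymphocytes and monocytes also carry the vitamin D receptor, and the question was whether P intake shifts their transcript levels.

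Values are log2 intensities after RMA normalization, so a difference of 1 stands for a doubling. Over the series the array medians ran from 5.25 to 5.42, and precision is limited by how many arrays there are. After centring of each probe set the highest correlation between any pair of arrays was 0.379. On the leading principal component (13.8% of the variance) the H arrays of pig 12 (-66.7) and pig 11 (-44.9) lay farther out than the other arrays compared, whereas the L arrays ran from -30.5 to 28.8. Results are therefore given with and without these H arrays. Defining markers of the labelled cells were present in every array compared. The T cell gene CD3E lay between 10.15 and 10.91 in H and between 10.29 and 10.73 in L. For the B cell gene MS4A1 the ranges were 11.20 to 12.22 and 11.20 to 12.28, and for the monocyte receptor CD14 they were 7.97 to 11.01 and 8.35 to 9.06. Genes of red cells were also measured, such as HBM (12.15 to 12.90 in H, 12.20 to 13.07 in L), as were genes of neutrophils, such as CXCR2 (9.64 to 12.997 and 10.05 to 10.93). The mean of the platelet list was low on 1 array of each diet, at -2.90 in H pig 18 and at -2.79 in L pig 1.

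Of 28086 probe sets that passed the filter on spread and mean, 0 (0%) differed between H and L at 63 dpn at P and q of 0.05 or less in limma. The smallest q was 0.254, and it was 0.275 with Benjamini-Hochberg adjustment. With unmoderated variances the count was also 0. At an unadjusted P of 0.05 or less, 1462 probe sets (5.21%) were higher and 944 (3.36%) were lower in H, together 2406 or 8.57% of those tested. With arrays centred on their medians, 72.1% of the probe sets at this limit were higher in H, against 60.8% without centring, although centring moved the median of all differences by 0.03 only. The arrays of H and L did not overlap for 26 probe sets higher in H (0.0926%) and 15 lower in H (0.0534%). Differences above 1 on the log2 scale were found for 60 probe sets, of which 49 were higher in H. The median standard error of a difference was 0.166.

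Leaving out single arrays moved these numbers most for pig 12. Without pig 12, 786 probe sets were higher and 652 lower at the unadjusted limit, 1438 in all. Without L pig 14 there were 1665. Without pigs 11 and 12 the counts were 546 and 674, together 4.34% of those tested, and the number called stayed at 0. Of the 2406 probe sets, 874 (36.3%) were below the limit also in the fit without both. With only the 13 arrays of H and L in the fit, the count was 1706. Pigs 11 and 12 were selected on these same values as the outermost H arrays, and no pair of L arrays was left out to match. Values without them are therefore a description only.

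**Figure D1:**
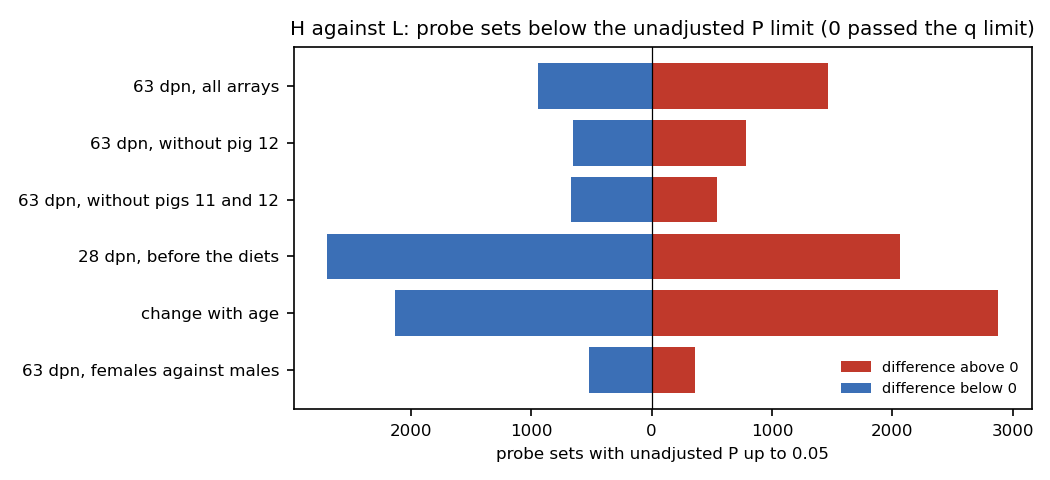
Number of probe sets with an unadjusted P of 0.05 or less, drawn to the right where the difference was above 0 (H higher, larger change in H, or larger difference in females) and to the left where it was below 0. The comparison at 63 dpn gave 2406 with all arrays and 1438 without pig 12, and the same pigs before the diets gave 4759.

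The same pigs were also compared before the diets. At 28 dpn, 0 probe sets were called between the later H and the later L pigs, and the smallest q was 0.0883. At an unadjusted P of 0.05 or less there were 4759 (16.9%), of which 2064 (43.4%) were higher and 2695 lower in the later H pigs. With arrays centred on their medians 32.2% were higher. The count of called probe sets was 635 without the 28 dpn array of H pig 12, 1 without that of L pig 17 and 1703 with array weights. Only 242 probe sets were below the limit at both ages, which is 10.1% of the 63 dpn list and 5.09% of the 28 dpn list. Of these, 27 had the same direction at both ages and 215 the opposite one. The change from 28 to 63 dpn differed between H and L for 0 called probe sets, with 5010 (17.8%) at the unadjusted limit and a smallest q of 0.0864. Of these 57.5% were above 0, and 72.5% with centred arrays. This fit was unpaired, with the arrays of a pig at both ages taken as independent. Paired by a fixed block for each pig, it gave 4880 at the unadjusted limit and 0 called. Without single arrays the count of called probe sets for the change was 563 (L pig 10 at 63 dpn), 141 (H pig 3 at 63 dpn), 129 (H pig 12 at 28 dpn) and 1 (H pig 11 at 28 dpn). The difference between H and L at 63 dpn was tested between the sexes, and 0 probe sets were called, with 883 (3.14%) at the unadjusted limit and a smallest q of 0.579. Without L pig 17 it was 1 called probe set.

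Among the 2406 probe sets the mean of M lay between those of L and H for 1882 (78.2%), against 31.6% over all probe sets. The wide gap between L and H by which these probe sets were selected leaves more room for M, so this share is a description only.

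Since no gene was called, those of lowest P in each direction are described. They were selected on this same comparison, so groups that do not overlap are a description only. The gene of lowest P was ANTXR2, a cell surface receptor for matrix proteins that anthrax toxin also uses. ANTXR2 ran from 7.95 to 9.25 in H, with a median of 8.33, and from 7.30 to 7.80 in L, with a median of 7.60. Every H pig lay above every L pig, and the M pigs (7.50 to 8.30) overlapped both. The difference was 0.86 ± 0.17 (SE, n = 7 and 6, limma adjusted p = 0.254 as a q value). It was 0.59 without pigs 11 and 12, and all 4 probe sets of the gene were higher in H, by 0.61 to 0.86. Before the diets the same pigs differed by 0.05.

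VCL, or vinculin, which ties adhesion sites to actin, ran from 6.52 to 7.63 in H (median 6.87) and from 3.78 to 6.66 in L (median 5.95). The difference of 1.28 ± 0.32 came with a wide spread in L, where the lowest pigs were at 3.78 and 4.92. The other 3 probe sets of VCL differed by at most 0.08, and before the diets the later H pigs were lower by -0.64 on the leading one. SYNE1, a nuclear envelope protein linked to actin, differed by 0.62, with 6 of 7 H pigs above all L pigs. KCNJ2, an inward rectifier potassium channel, differed by 1.24, by 0.78 without pig 12 and by 0.55 without pigs 11 and 12. Pig 12 was at 7.66 and pig 11 at 5.79, against a median of 4.31 in H. B4GALT5, a galactosyltransferase of glycolipid synthesis, differed by 0.79.

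The probe set that the array annotation names MIR221, a microRNA gene, showed 1 of the largest differences. In H it ran from 3.59 to 6.67 (median 4.23) and in L from 1.91 to 4.17 (median 2.61). The difference was 1.78 ± 0.46, and 1.16 without pigs 11 and 12, which held the highest values. The second probe set of this name differed by 0.54 and was not at the unadjusted limit. The means of the first, 4.56 in H and 2.81 in L, lay below the array medians (5.25 to 5.42).

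CCHCR1, a coiled-coil protein of the centrosome, did not overlap between the diets on 1 of its 3 probe sets (0.0926% of all probe sets in this direction). It ran from 4.75 to 5.64 in H and from 4.36 to 4.65 in L, and the difference was 0.56 ± 0.15 with all pigs and 0.59 without pigs 11 and 12. Another of its probe sets differed by -0.03. CCNL1 and CCNL2, cyclins of RNA splicing, differed by 0.51 and 0.54. The other CCNL1 probe set differed by 0.64, and those of CCNL2 by 0.05 to 0.32, none of the latter at the limit. BNIP3, a mitochondrial protein that low oxygen induces, differed by 0.51 on its leading probe set and by 0.36 on the other. SEL1L3 differed by 0.70, LOC100524156 by 1.29 and LOC100522887 by 0.97, each with 6 of 7 H pigs above all L pigs. The means of LOC100524156 (4.39 in H, 3.10 in L) lay below the array medians (5.25 to 5.42).

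Signaling genes of innate immunity completed the leading genes that were higher in H. TLR4, the receptor for bacterial lipopolysaccharide, ran from 6.71 to 10.43 in H (median 7.49) and from 6.49 to 7.06 in L (median 6.83) on the probe set of lowest P. The difference of 1.18 ± 0.33 dropped to 0.49 without pigs 11 and 12. Of the 7 TLR4 probe sets 6 were higher in H. TANK, a regulator that binds TRAF proteins in NF-kB signaling, ran from 7.25 to 8.73 in H (median 7.62) and from 6.60 to 7.39 in L (median 7.18). TANK differed by 0.67 ± 0.18 at 63 dpn and by 0.46 without pigs 11 and 12, whereas before the diets the later H pigs were lower by -0.39.

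**Figure D2:**
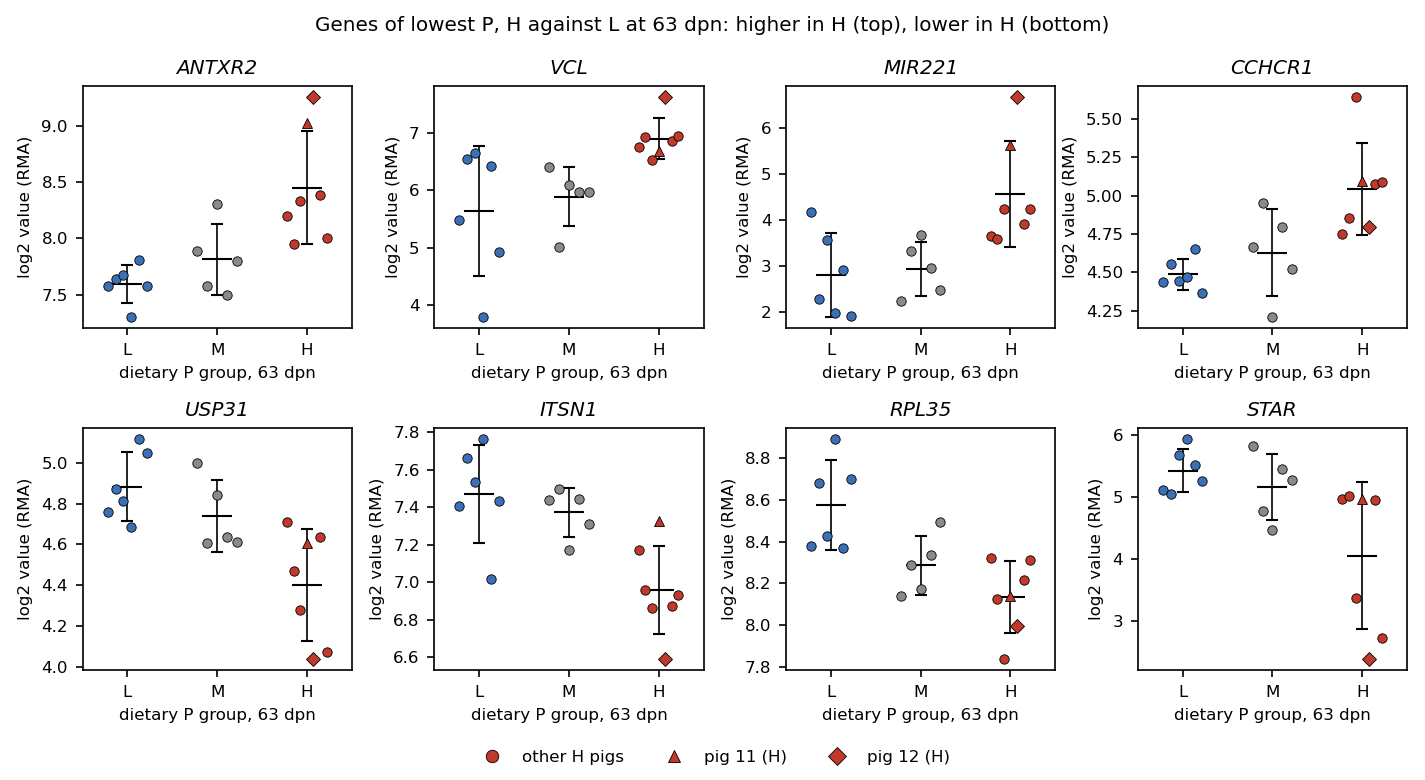
Log2 value of each 63 dpn array by dietary group, with the mean and SD as bars. Shown are the 4 genes of lowest P that were higher in H. The 4 lower genes were picked from the 15 of lowest P. Some of lower P than RPL35 and STAR, such as B3GALNT2, are not drawn. For ANTXR2, CCHCR1, RPL35 and STAR no H pig overlapped the L pigs, and the H arrays of pigs 11 and 12 have their own symbols.

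Among genes lower in H, the lowest P belonged to USP31, a ubiquitin protease. USP31 ran from 4.04 to 4.71 in H (median 4.47) and from 4.68 to 5.12 in L (median 4.84), all below the array medians (5.25 to 5.42). The difference was -0.47 ± 0.11 (n = 7 and 6, limma adjusted p = 0.441 as a q value), and 6 of 7 H pigs lay below every L pig. ITSN1, a scaffold of endocytosis, differed by -0.50 ± 0.13 on its leading probe set and by 0.20, -0.08 and -0.01 on the others. B3GALNT2, a glycosyltransferase acting on dystroglycan, differed by -0.50 ± 0.13, and all 3 of its probe sets were lower in H. Without pigs 11 and 12 these values were -0.44 for USP31, -0.50 for ITSN1 and -0.44 for B3GALNT2.

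RPL35, a protein of the large ribosomal subunit, did not overlap between the diets, which held for 0.0534% of all probe sets in this direction. It ran from 7.84 to 8.32 in H and from 8.37 to 8.89 in L, a difference of -0.45 ± 0.12. The later H pigs were lower by -0.27 already at 28 dpn, and the change with age differed by -0.18. GAS2L3, which links actin with microtubules in dividing cells, also did not overlap, with 4.78 to 5.38 in H and 5.41 to 5.77 in L. Its other probe set, of higher signal (means of 6.59 in H and 6.52 in L), differed by 0.07. NCAPG2, a condensin subunit, differed by -0.55, and all 5 of its probe sets were lower in H.

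STAR, the protein that carries cholesterol into mitochondria for steroid synthesis, had 7 probe sets that disagreed. On the probe set of lowest P, H ran from 2.38 to 5.0 (median 4.94) and L from 5.04 to 5.93 (median 5.38), a difference of -1.35 ± 0.38. The H pigs 9, 12 and 18 were at 3.36, 2.38 and 2.72 and the other 4 H pigs just below the L range. On its probe set of highest mean the difference was -0.10 ± 0.14, and no other STAR probe set passed the unadjusted limit. The remaining genes in this direction were ARID1B, a subunit of the BAF chromatin remodeller (-0.49), FOXK2, a forkhead factor (-0.66), and PODXL, a sialomucin (-0.61). Their probe sets disagreed in direction, with 3 of 7 higher in H for ARID1B, 2 of 4 for FOXK2 (0.37 and 0.24) and 1 of 4 for PODXL. Also lower were ACTR3B, an actin nucleation subunit (-0.69), ZMAT5, a part of the minor spliceosome (-0.59), FNBP1L (-0.50), LMBR1 (-0.49) and LOC100511653 (-1.24). The means of LOC100511653 (2.72 in H, 3.97 in L) lay below the array medians (5.25 to 5.42).

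Gene lists are described by counts at the unadjusted limit of 0.05, since no member of any of the 37 lists was called. Some genes, such as TLR4, CSF3R and CD163, stand in several lists, so the lists are not separate results. Over the 9529 named genes, 6.50% were higher and 4.18% lower in H at this limit, 48.4% had a difference above 0, and the median difference was -0.01. PBMC were profiled as a whole, so more cells of a type and more RNA per cell cannot be told apart.

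Monocyte genes were higher in H in the mean, with a wide spread among the H pigs. All 14 tested had a difference above 0, 5 at the unadjusted limit, and the median was 0.50. TLR4 (1.06 on its probe set of highest mean), the scavenger receptor CD163 (0.93), the calgranulin S100A8 (0.86), the receptor CSF3R (0.81) and the transcription factor CEBPB (0.75) were those 5. CD163 ran from 5.45 to 9.10 in H and from 5.68 to 5.89 in L. The mean of the centred monocyte genes was 1.98 in pig 12 and 0.78 in pig 11, between -0.36 and 0.33 in the other H pigs and between -0.35 and -0.04 in L. The median of the list was 0.27 without pig 12 and 0.21 without pigs 11 and 12, where 0 of the 14 genes were at the limit. Without pig 12, 2 of the 14 were. At 28 dpn the median was -0.18. Of the neutrophil genes, 3 of 8 were at the limit, namely CSF3R, CXCR2 (0.72) and CHI3L1 (0.68), whereas LTF differed by 0.13 and MPO by -0.06. Without pig 12 the differences of CSF3R, CXCR2 and CHI3L1 were 0.48, 0.40 and 0.43, with CSF3R alone of them at the limit, and without pigs 11 and 12 none of the 3 was. How far cell composition enters the lists of innate immunity was not tested.

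The interleukin-1 system and inflammasome held the largest share of genes at the limit. All 9 genes tested had a difference above 0 and 8 were at the limit, with a median of 0.68. IL1B, the cytokine interleukin-1 beta, ran from 6.43 to 7.67 in H (median 6.81) and from 6.03 to 6.53 in L (median 6.33), and 5 of 7 H pigs lay above all L pigs. The difference was 0.55 ± 0.19, and 0.41 without pigs 11 and 12. IL18RAP, an accessory chain of the interleukin-18 receptor, ran from 5.79 to 11.10 in H and from 6.26 to 7.59 in L, so H held both the lowest and the highest value. Its difference was 1.26, and 0.41 without pigs 11 and 12. The receptor chains IL1RAP (1.07), IL18R1 (0.62) and IL1R1 (0.52), the cytokine IL1A (0.85) and the inflammasome sensor NLRP3 (0.57) were at the limit as well. The other IL1R1 probe set differed by 0.09, and those of IL18R1 by 0.58 and -0.14. IL1R2, the decoy receptor, differed by 0.78, and by 0.05 without pigs 11 and 12. The median of the list was 0.41 without pig 12, with 3 of 9 genes at the limit, and 0.22 without both pigs. At 28 dpn it was -0.08.

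Interferon-stimulated genes came next. All 24 had a difference above 0, 12 of them at the limit, and the median was 0.58. IFIT2, a protein that binds viral RNA, ran from 9.82 to 12.65 in H (median 10.94) and from 9.5 to 10.90 in L (median 10.06). Its difference was 1.1 ± 0.36. OAS1 (1.07) and ISG15 (1.05), an antiviral synthetase and a ubiquitin-like protein, and the protease USP18 (0.92) had differences of similar size. The mean of the list was 0.97 in pig 12 and 0.87 in pig 11, and the other 5 H pigs (-0.78 to -0.13) lay within the range of the L pigs (-0.95 to -0.12). Without pig 12 the median was 0.46, with 3 genes at the limit. Without pigs 11 and 12 it was 0.26, with 23 of 24 differences above 0 and 0 genes at the limit. At 28 dpn, before the diets, the median of this list was -0.10.

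**Figure D3:**
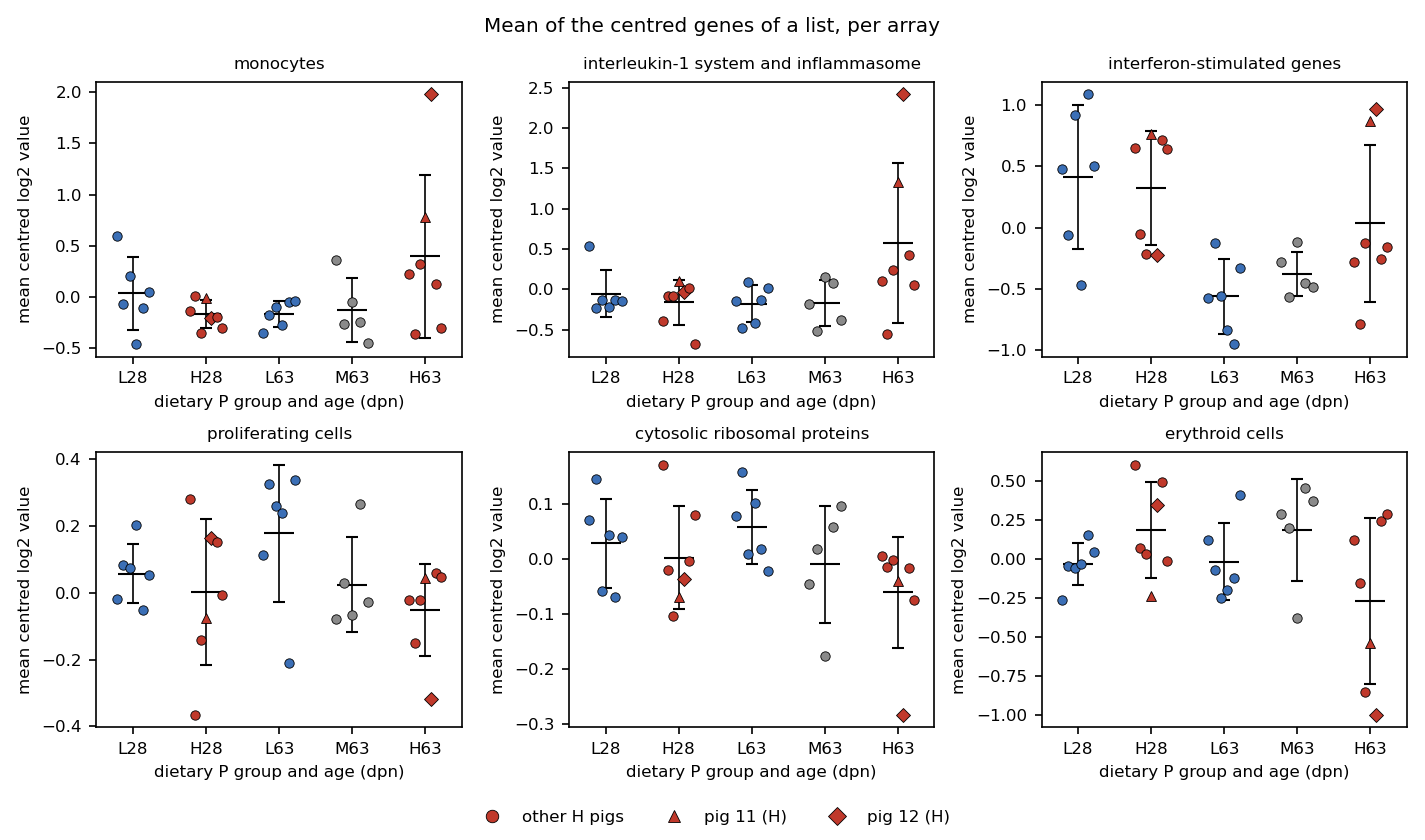
Mean of the centred log2 values of the genes of 6 lists for each array of L and H at 28 dpn and of L, M and H at 63 dpn, with the group mean and SD as bars. At 63 dpn the H pigs 12 and 11 held the highest values for monocyte (1.98 and 0.78), interleukin-1 (2.42 and 1.33) and interferon-stimulated genes (0.97 and 0.87).

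Signaling genes of innate immunity at the limit were all higher in H. Of 20 Toll-like receptors and adaptors, 5 were at the limit, TLR4 and TLR2 (0.64), the adaptor MYD88 (0.66), the TLR4 partner LY96 (0.67) and TLR8 (0.42). For TLR8, 6 of 7 H pigs lay above all L pigs. The median of the list was 0.18, and 0.14 without pig 12. The number at the limit was 3 without pig 12 and 0 without pigs 11 and 12. Of 12 NF-kB genes 5 were at the limit, namely TANK, the kinase subunits IKBKG (0.36) and IKBKB (0.30), the inhibitor NFKBIA (0.33) and BCL3 (0.57). The median of the NF-kB list was 0.25, and 0.15 without pig 12, where 2 genes were at the limit. Of 21 MAP kinase genes 6 were at the limit, with a median of 0.15, among them the phosphatase DUSP2 (0.64) and the kinases MAPK13 (0.51) and MAPKAPK3 (0.35). The other DUSP2 probe sets differed by 0.47 and -0.23. MAPKAPK3 differed by 0.41 and DUSP2 by 0.25 without pigs 11 and 12, and 2 genes of the list were at the limit with pig 12 or both left out. Of 17 genes of the glucocorticoid receptor and its targets 8 were at the limit, with a median of 0.29. Without pig 12 the median was 0.19 with 2 genes at the limit, and without pigs 11 and 12 it was 0.11 with 0. The 8 included CD163 (0.93), also a gene of the monocyte list, ANXA1 (0.52), TXNIP (0.43), STAT5B (0.35) and FKBP5 (0.33). TXNIP restrains glucose uptake and FKBP5 is a chaperone of the receptor. At 28 dpn the medians of these 4 lists were all below 0.

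Among receptor, ligand and decoy of the RANK axis, 1 gene was at the unadjusted limit. TNFRSF11B, the decoy receptor osteoprotegerin, ran from 4.92 to 5.35 in H (median 5.17) and from 5.21 to 6.03 in L (median 5.67). The difference was -0.48 ± 0.16 (95% confidence interval -0.79 to -0.16, limma adjusted p = 0.441 as a q value), with 5 of 7 H pigs below all L pigs. It was -0.46 without pigs 11 and 12 and 0.20 at 28 dpn. The means of TNFRSF11B, 5.17 in H and 5.65 in L, lay near the array medians (5.25 to 5.42). The receptor RANK (TNFRSF11A) ran from 7.39 to 7.85 in H and from 7.43 to 7.97 in L, and its 3 probe sets differed by -0.11 to 0.11. RANKL (TNFSF11) differed by -0.07, with an interval from -0.52 to 0.37. CTSK, the collagen protease cathepsin K of osteoclasts, differed by 0.47 (interval -0.05 to 0.99), and before the diets by -0.71, a difference at the unadjusted limit. RUNX2, the osteoblast transcription factor, ran from 7.39 to 8.09 in H and from 7.22 to 7.43 in L. Its difference of 0.25 had an interval from -0.002 to 0.49 and was 0.12 without pigs 11 and 12. Among the 16 genes of RANK signaling and osteoclasts 2 were higher and 2 lower at the limit, with a median of 0.04. The 2 higher ones were FCER1G (0.54), the Fc receptor gamma chain, and the myeloid factor SPI1 (0.50), and the lower ones were TNFRSF11B and the calcitonin receptor CALCR (-0.27). Without pig 12, FCER1G differed by 0.34 and SPI1 by 0.26, and 0 genes were higher and 1 lower at the limit. Of 19 genes of bone formation and BMP signaling, 1 was at the limit, the bone sialoprotein gene IBSP (-0.40), and the median was -0.07. The means of IBSP (4.20 in H, 4.59 in L) and CALCR (4.81 and 5.09) lay below the array medians.

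Of 16 genes of phosphate handling 2 were at the limit, both higher in H, and the median was -0.08. Without pig 12, 1 was at the limit. FAM20C, the kinase that phosphorylates FGF23 and other secreted proteins, ran from 4.78 to 5.12 in H and from 4.17 to 4.98 in L, a difference of 0.40 that was 0.39 without pigs 11 and 12. All these FAM20C values lay below the array medians (5.25 to 5.42). SLC37A4, the glucose 6-phosphate transporter, differed by 0.33. The phosphate importer SLC20A2 differed by 0.20 (interval -0.12 to 0.52), the exporter XPR1 by -0.18 (interval -0.53 to 0.18) and GALNT3, which glycosylates FGF23, by 0.18 (interval -0.15 to 0.50). FGF23 ran from 6.50 to 7.07 in H and from 6.47 to 7.05 in L, and the difference was -0.08 (interval -0.34 to 0.18).

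Among 14 genes of vitamin D signaling 3 were higher and 2 lower at the limit, and 1 and 2 without pig 12. VDR, the vitamin D receptor, differed by 0.28 (interval -0.06 to 0.61), and by 0.05 without pigs 11 and 12. Its partner RXRB differed by 0.44 and the corepressor NCOR1 by -0.52, and the values without the 2 pigs were 0.36 and -0.51. The other RXRB probe sets differed by 0.09 and 0.03. CYP27A1, a vitamin D hydroxylase, differed by 0.01 (interval -0.31 to 0.34). Of 22 genes of calcium transport and calcineurin signaling 1 was higher, the plasma membrane pump ATP2B1 (0.31), and 1 lower, NFATC3 (-0.48), and without pig 12 it was 0 and 1. ATP2B1 had differed by -0.42 before the diets.

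**Figure D4:**
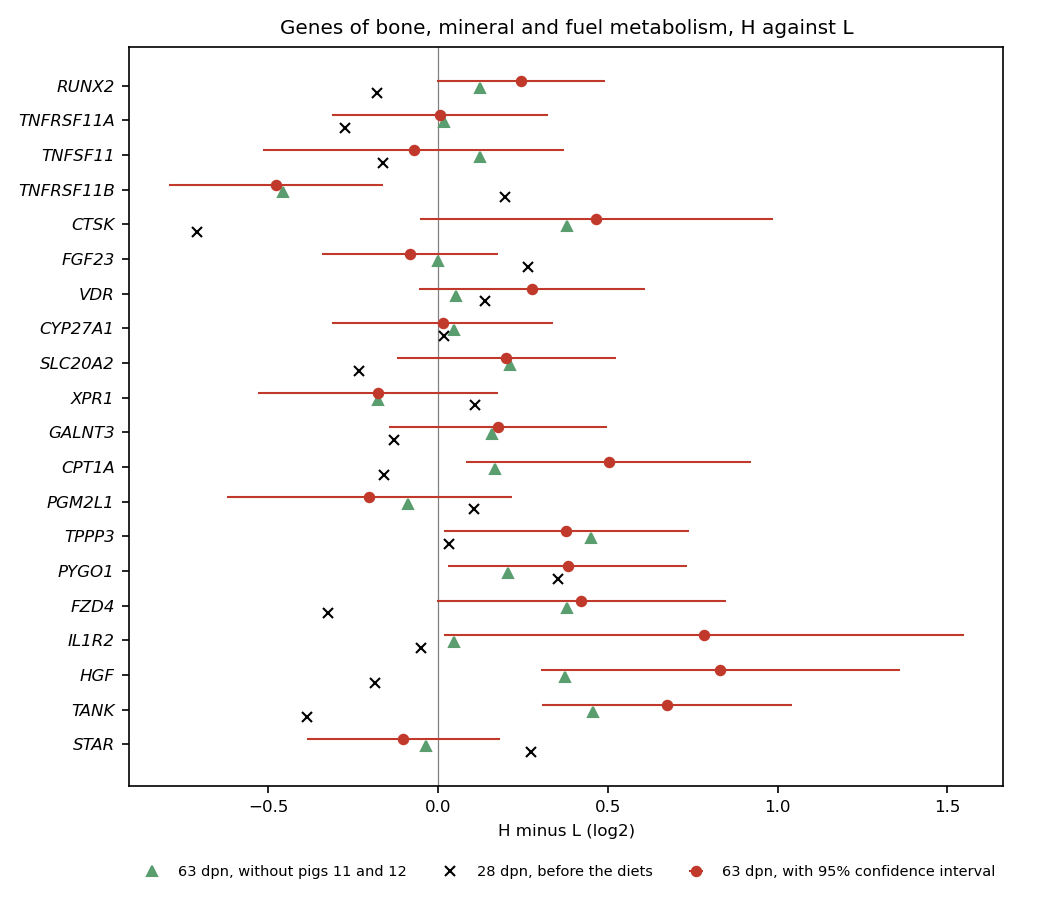
Difference between H and L on the log2 scale for genes of bone, mineral, fuel and immune metabolism, as points with 95% confidence intervals at 63 dpn, and as points only without pigs 11 and 12 and at 28 dpn. TNFRSF11B, with values near the array medians, was the only gene of the RANK axis whose interval left out 0. The difference of IL1R2 moved from 0.78 to 0.05 without the 2 pigs.

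Genes of cell division and of the ribosome were mostly below 0 in their differences. Of 18 genes of proliferating cells 15 had a difference below 0 and 6 were at the limit, with a median of -0.18. These were the spindle motor KIF11 (-0.49), the checkpoint kinase BUB1 (-0.55), CCNB2 (-0.43), AURKA (-0.43), NUSAP1 (-0.41) and AURKB (-0.31), whereas MKI67 differed by 0.04. Other probe sets differed less, by -0.18 and -0.17 for BUB1, -0.22 for CCNB2 and -0.06 for AURKA, and none of these was at the limit. KIF11 ran from 7.34 to 8.42 in H (median 8.0) and from 7.91 to 8.76 in L (median 8.57). Its difference of -0.49 ± 0.17 was -0.45 without pigs 11 and 12. Without pig 12 the same number of genes of this list, 6, was lower at the limit. Of 32 cytosolic ribosomal proteins 7 were lower and 1 higher at the limit, with a median of -0.16. RPS21 (-0.52), RPL35 (-0.45), RPL24 (-0.39) and RPL12 (-0.35) were among the lower ones. RPL10, the only one higher, differed by 1.29 on a single probe set that ran from 1.37 to 5.72 in L. The median of the ribosomal list was -0.11 without pig 12 and -0.10 without pigs 11 and 12. At the limit 6 of its genes were lower without pig 12 and 5 without both. Erythroid genes all had a difference below 0, with a median of -0.22 over 7 genes, and 0.03 without pigs 11 and 12. The transferrin receptor TFRC (-0.54) was the one at the limit, and it was -0.44 without both pigs.

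Lymphocyte lists held few genes at the limit. Of 9 T cell genes 0 were at the limit and the median was -0.04, and of 10 B cell genes 0 were at the limit with a median of -0.12. BCL11B of the T cell list was lower in H on all 4 of its probe sets. Of these 2 were at the limit (-0.39 and -0.32), but not the one that stood for the gene (-0.28). At 28 dpn the B cell median was -0.56. Of 13 genes of cytotoxic T and NK cells 1 was at the limit, the receptor KLRB1, which ran from 4.32 to 5.23 in H and from 3.66 to 4.58 in L. The difference was 0.73 ± 0.22, and 0.67 without pigs 11 and 12. Pig 3 was the only H pig within the range of L. All these KLRB1 values, from 1 probe set, lay below the array medians (5.25 to 5.42).

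Of 19 genes of fatty acid oxidation 5 were higher and 2 lower at the limit, with a median of 0.05. Without pig 12 it was 1 higher and 0 lower, and without pigs 11 and 12 it was 0 and 0. CPT1A, which passes long-chain fatty acids into mitochondria, ran from 7.55 to 9.71 in H (median 7.84) and from 7.47 to 7.82 in L (median 7.58). Pig 12 was at 9.71, and the difference of 0.50 was 0.17 without pigs 11 and 12. On its other probe sets CPT1A differed by -0.12, 0.06 and -0.01. ACSL1 (1.07) and ACSL4 (0.74), which activate fatty acids, differed by 0.32 and 0.21 without pigs 11 and 12. HADH, an enzyme of the same pathway, differed by -0.76, and by -0.31 without the 2 pigs. Of 16 genes of glycolysis and hypoxia 5 were higher at the limit, among them the kinases HK3 (0.82) and PGK1 (0.47) and the glucose transporter SLC2A3 (0.53). Without pig 12, 3 genes of this list were at the limit, and without pigs 11 and 12 it was 1. PGK1 was higher in H on all 9 of its probe sets, and 6 of 7 H pigs lay above all L pigs. Of 24 lysosomal genes 21 had a difference above 0, 2 were at the limit and the median was 0.23. Without pig 12 the median was 0.17 with 0 at the limit. INSIG1, a brake on cholesterol synthesis, differed by 0.40, again with 6 of 7 H pigs above all L pigs. HGF, a growth factor that monocytes also make, ran from 6.94 to 9.46 in H (median 7.33) and from 6.60 to 7.02 in L (median 6.84), and its difference of 0.83 was 0.38 without pigs 11 and 12. TPPP3, a protein of microtubules, differed by 0.38, PGM2L1 by -0.20, and the Wnt pathway genes PYGO1 and FZD4 by 0.38 and 0.42. PYGO1 had differed by 0.35 before the diets.

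Of the other lists none had more than 3 genes at the limit. Conventional dendritic cells gave 1 of 5, the chemokine receptor XCR1 (0.82, and 0.18 without pigs 11 and 12). Of these 5 genes 4 had a difference above 0. The median of the list was 0.32, 0.37 without pig 12 and 0.18 without both pigs. In 5 of 7 H pigs the mean of the list lay above that of all L pigs. Chemokine receptors gave 1 of 11, CCR1 (0.80, and 0.22 without both pigs). Among 14 genes of MHC class II presentation the costimulatory ligand CD86 (0.38) was at the limit. The clock list gave NFIL3 (0.84) and HLF (0.34), both transcription factors, and without pigs 11 and 12 these differed by 0.33 and 0.34. The immediate early genes gave JUNB (0.58), KLF6 (0.51) and, lower in H, IER3 (-0.41), and the values without both pigs were 0.21, 0.47 and -0.38. The cochaperone DNAJA1 (0.56), the proteasome subunit PSMA5 (0.30) and, of the respiratory chain, SDHD (0.44) and NDUFV2 (-0.33) were single genes of their lists. The other NDUFV2 probe set differed by 0.22. Without pig 12 the lists of conventional dendritic cells, MHC class II, the proteasome and the respiratory chain gave 0 genes at the limit. Plasmacytoid dendritic cells, gamma-delta T cells, plasma cells, basophils and platelets gave 0 genes at the limit, with medians between -0.09 and 0.09. Medians of 5 lists turned sign with another scaling of the arrays, all of them close to 0: plasmacytoid dendritic cells (0.00), gamma-delta T cells (0.00), plasma cells (-0.03), calcium transport (-0.01) and MHC class II (-0.01).

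**Figure D5:**
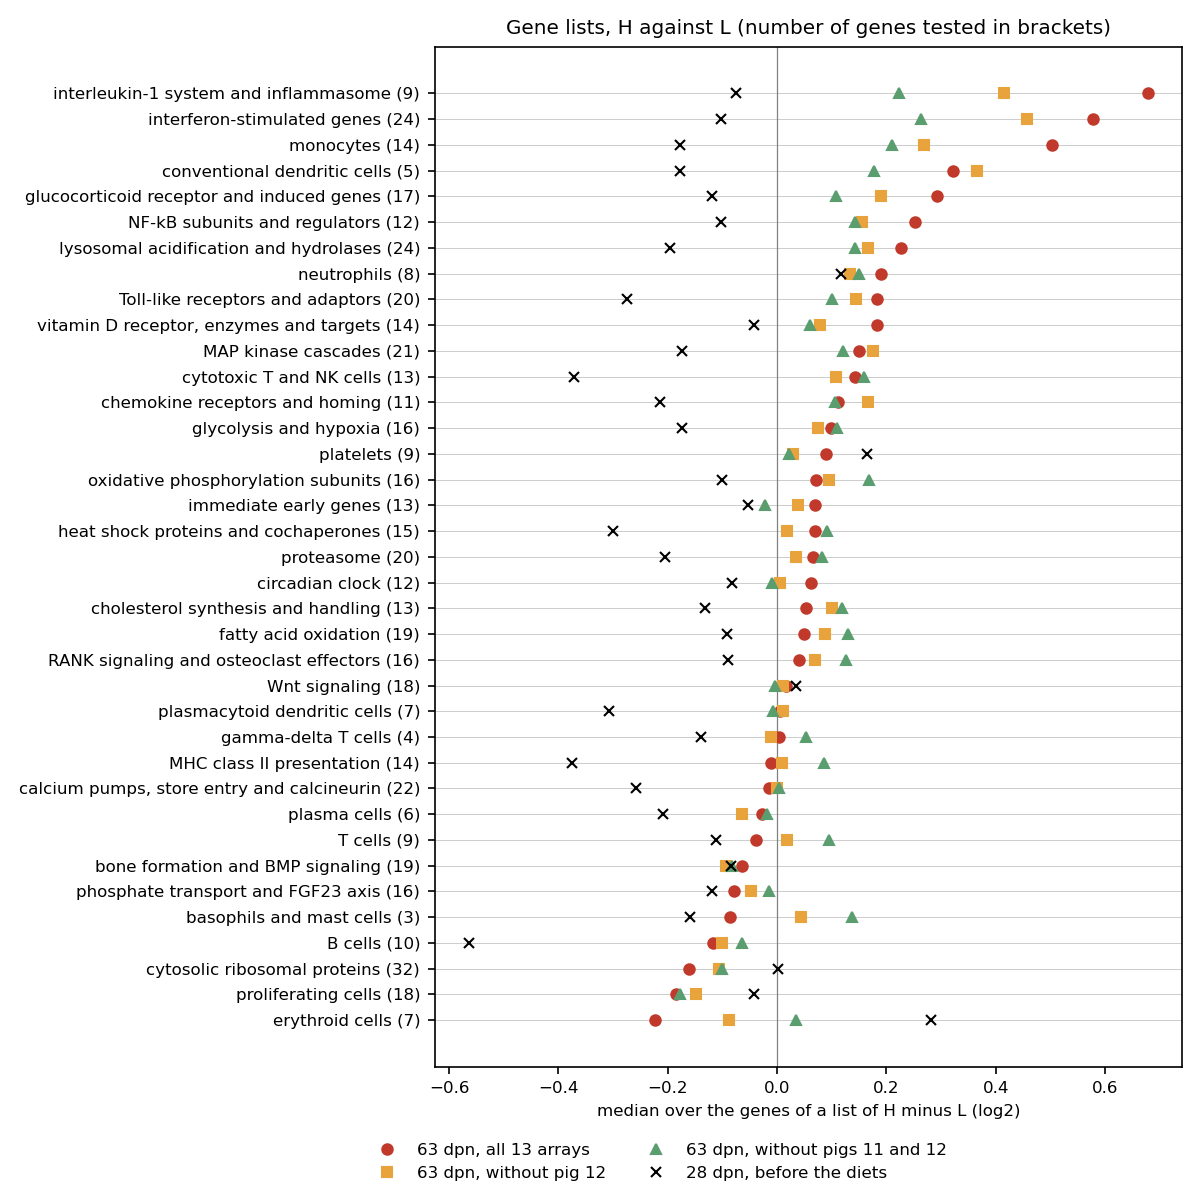
Median difference between H and L over the tested genes of each list at 63 dpn with all 13 arrays, without pig 12 and without pigs 11 and 12, and at 28 dpn. The interleukin-1, interferon and monocyte lists had medians of 0.68, 0.58 and 0.50 with all arrays and of 0.22, 0.26 and 0.21 without the 2 pigs.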

How the data were processed

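Transcript levels were measured on a porcine Affymetrix array of 47845 probe sets in PBMC of 19 pigs, isolated from blood on a density gradient. The authors normalized the arrays by RMA and deposited log2 values, with GCOS 1.1.1 named in the submitters' processing notes. A genome build is not given in the sources used here. Controls (123) were removed, and a filter required a mean above 2.5 with an SD above 0.23, which 28086 probe sets passed (of which 15356 carried a gene symbol, 9529 genes, and 293 symbols were updated). H and L at 63 dpn were compared with limma 3.58.1 in R 4.3.3 on all 37 arrays, with group and sex as terms and the 28 dpn arrays as 1 group. The other comparisons used 6 groups or split sexes. Called meant P and Storey q of 0.05 or less. The methods' sire term could not be used since labels give no sire.

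Named were the 15 genes of lowest P in each direction, up to 4 genes of lowest P per list and further genes of bone, mineral and fuel metabolism, of which CYP27B1 and SLC20A1 gave no tested probe set. Further list members were named because they were at the limit. In lists, the probe set with the highest mean stood for its gene. Members and lists were chosen with earlier results of these data known. Pig numbers tie the ages of 18 pigs, since they name the same animal. The H and L groups at 63 dpn held different pigs. Deviations of the same pig at both ages correlated by -0.185 to 0.195, and 4 of 18 were over 0.1. Steps were tested on simulated data. Alternatives were other sets of arrays, filters, scalings, weights, adjustments and pig blocks.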

Additional observations from a re-analysis of the deposited data

Results flagged for a closer look

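Single arrays stood apart from their group in 27 of 312 groups of values looked at (8.65%). Many of these genes were selected on this same comparison, and some lists share genes. The share can therefore not be set against a chance rate. In each the highest or lowest pig lay farther from its neighbour, relative to the range of its group, than Dixon's critical value allows.

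Most of these values belonged to H pig 12 at 63 dpn, on the high side. For genes of innate signaling they were MYD88 (12.1), IKBKG (7.98), IKBKB (8.95), MAPK13 (7.84), MAPKAPK2 (11.5), STAT5B (10.8), JUNB (10.2) and the myeloid factor SPI1 (12.1). For vitamin D and metabolism they were VDR (8.05), its coactivator NCOA2 (10.6), CPT1A (9.71), PFKFB4 (7.997), BNIP3 (9.45) and the proton pump subunit ATP6V1C1 (9.20). VCL (7.63) was the leading gene among them. On the low side pig 12 had HADH at 5.79 and NDUFV2 at 8.91. Among the means of centred lists, pig 12 stood apart for vitamin D signaling (0.804), NF-kB (0.842), MAP kinases (0.599), immediate early genes (0.864) and, on the low side, ribosomal proteins (-0.283). The part of this array in the counts is given by the values without it, and the cause was not tested.

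Apart from pig 12, CCHCR1 was high in H pig 9 (5.64) and KLRB1 was low in H pig 3 (4.32). The platelet list was low in H pig 18 (-2.90) and in L pig 1 (-2.79), and the list of plasmacytoid dendritic cells was low in L pig 17 (-0.363).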

How the results depend on the processing

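The count of called probe sets for H against L at 63 dpn was 0 in every alternative run and without each of the 37 arrays in turn (range 0 to 0). At the unadjusted limit it ran from 1438 without H pig 12 to 2854 without H pig 3. It was 2110 with array weights, which were lowest for pigs 12 (0.368) and 11 (0.566) among the arrays at 63 dpn, 3448 of 47722 without a filter, 1138 of 8263 with a stricter one and 2362 with unmoderated variances. With each pig as a random replicate block it was 2394, and with each pig as a fixed replicate block, which compares changes from 28 dpn, it was 4880, with 0 called in both. For H against L at 28 dpn the count called was 1703 with array weights and 0 to 635 without single arrays. For the change with age it was 0 to 563, and for the difference between the sexes 0 to 1. The cause was not tested.

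Among the named genes, TNFSF11 turned sign with array weights (0.126), in the fixed replicate block (0.0904) and without pigs 11 and 12 (0.123), and ran from -0.232 to 0.0367 without single arrays. TNFRSF11A turned with repeated quantile normalization (-0.0337) and ran from -0.0396 to 0.0681, and CYP27A1 turned in the fixed block (-0.00404) and ran from -0.0751 to 0.131. List medians moved by over 1 SD in 26 cases, 7 with the stricter filter and 19 in the fixed block, and in 0 without single arrays. The fixed block could not be fitted at 28 dpn, and a fit without the sex term does not exist for the difference between the sexes. Litter and sire were not in any fit, and 7 against 6 pigs with a median standard error of 0.166 limit what could be called.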
